A study of Bos taurus with 28 samples.

Results

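FSHB (ENSBTAG00000010889), the beta subunit of follicle-stimulating hormone, and FST (ENSBTAG00000003329), which encodes follistatin, were followed in the anterior pituitary of 28 heifer calves. They were chosen by gene identifier and are 2 of the 27607 genes in the deposited table. Both passed the filter on low values and were among the 14939 genes tested. The calves were Angus X Holstein-Friesian crosses of 21 weeks of age, and the labels place 13 in a high plane of nutrition group (HI) and 15 in a moderate one (MOD). The amounts that follow are those on the labels, and the study's methods describe allowances that were stepped within the milk feeding phase. HI calves were given 10 litres of milk replacer made with 1.5 kg of powder daily and concentrates without limit in a phase of 8 weeks. For the next 11 weeks they had concentrates and hay without limit, and a gain of 1.2 kg per day was aimed for. MOD calves were given 4 litres made with 0.5 kg of powder daily with 1 kg of concentrates, then had 1 kg of concentrates and hay without limit, and a gain of 0.5 kg per day was aimed for. Each library is labelled as anterior pituitary from a single calf. The comparison addresses how feeding in early life acts on the pituitary genes that control reproduction.

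Follicle-stimulating hormone is made by the gonadotrophs of the anterior pituitary and drives the growth of ovarian follicles. It is a pair of proteins, an alpha subunit shared with other pituitary hormones and a beta subunit that gives the hormone its identity, and the supply of beta subunit limits how much hormone is made. Gonadotropin-releasing hormone (GnRH) from the hypothalamus and activin, made in the pituitary itself, raise FSHB transcription. Follistatin is a secreted protein that binds activin and holds it away from its receptors, and in the pituitary it is made by gonadotrophs and by folliculostellate cells.

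Libraries held 12928932 to 18217216 gene reads among HI calves (median 15822757) and 12669266 to 18196391 among MOD calves (median 15923476). Expression is given as CPM, the reads of a gene scaled to a common library size, after library sizes were adjusted for composition by the TMM method. A single read was worth 0.0482 to 0.0830 CPM. The pituitary hormone gene PRL was present in all calves at 32023 CPM or more. Across calves of the same diet, log2 depth had a correlation of 0.06 with FSHB and -0.02 with FST (28 calves).

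A few calves stood nearer to the other diet than to their own. Each calf was left out in turn, the genes that differed between the diets among the remaining calves were found, and the calf's own values were set against the 2 diet means. HI calf 553 lay nearer to the MOD mean in 103 of 170 such genes (60.6%). MOD calf 2551 lay nearer to the HI mean in 85 of 153 (55.6%), and HI calf 986 lay nearer to the MOD mean in 86 of 156 (55.1%). In the other calves the share ran from 14% to 44.2%. Calf 553 had the highest FSHB and FST of the HI group and calf 2551 the lowest of the MOD group. Most of these genes of calf 553 lay nearer the MOD mean, but they did not all point one way. PRL was at 79685 CPM, near the MOD median of 76115 and far below the median of 200463 in the other HI calves. DRD2 (246 CPM), MINAR2 (2.38 CPM) and VCAN (167 CPM) also lay nearer the MOD medians (212, 2.57 and 139) than those of the other HI calves (426, 0.669 and 41.9). EGR1 and RASD1 lay nearer the other HI calves. CSHL1 at 62065 CPM and GHRHR at 228 CPM lay nearer the other HI calves (medians 79461 and 277) than MOD calves (131518 and 411), and ARC was lower than in any other HI calf, on the side away from MOD calves. The labels were kept, and whether the labels of calves 553 and 2551 are right was not tested. The diet differences in FSHB and FST, the slope of FST on FSHB and the counts of genes called within diets are also given without those calves. Without calf 986 the FSHB and FST diet differences below were -1.24 (adjusted p = 0.0407 in limma) and -1.02 (adjusted p = 0.0645), and the slope of FST on FSHB was 0.77 (adjusted p = 0.000509).

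FSHB was lower in the HI calves. It ranged from 271 to 2949 CPM in the HI group with a median of 429, and from 347 to 3289 CPM in the MOD group with a median of 1478. The ranges overlapped almost completely, yet 12 of 13 HI calves lay below the MOD median and 12 of 15 MOD calves lay above the second highest HI calf, which had 839 CPM. No HI calf lay between 429 and 708 CPM or between 839 and 2949 CPM. The HI mean was 707 ± 705 CPM (SD, n = 13), against a MOD mean of 1554 ± 810 CPM (SD, n = 15). The log2 fold change of HI against MOD was -1.27 (SE 0.34, 95% confidence interval -1.96 to -0.58), with a Benjamini-Hochberg adjusted p-value of 0.0316 in limma. Thus 1 of the 2 genes passed both thresholds (fold change over 1.5, adjusted p-value under 0.05), where 0.837% of all genes tested were called and 0.428% were called lower. The quasi-likelihood F-test of edgeR on recovered reads gave -1.14 with an adjusted p-value of 0.0524. Without calf 553 the log2 fold change was -1.47 (adjusted p = 0.00397 in limma), and without calves 553 and 2551 it was -1.61 (adjusted p = 0.000575). The call was lost in 7 of 28 fits that left out a single calf, with a largest adjusted p-value of 0.0585 without HI calf 2120. In whole tissue, a smaller share of gonadotrophs and less FSHB RNA in each gonadotroph cannot be told apart.

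FST was a weakly expressed gene that took the same direction without passing the threshold here. The study, with edgeR at the same thresholds and groups it gives as equal in size, did list FST as lower in HI calves. In the HI group FST ranged from 1.51 to 14.7 CPM with a median of 2.98, and in the MOD group from 2.49 to 20.03 CPM with a median of 6.81. The groups overlapped, with 11 of 13 HI calves below the MOD median. The HI mean was 4.21 ± 3.72 CPM (SD, n = 13), against a MOD mean of 8.79 ± 5.80 CPM (SD, n = 15). The log2 fold change was -1.02 (SE 0.31, 95% confidence interval -1.65 to -0.39, adjusted p = 0.0607 in limma). Without calf 553 it was -1.19 (SE 0.28, adjusted p = 0.014) and FST was called, as it was without calves 553 and 2551 (-1.29, adjusted p = 0.00497). These values rested on 23 to 228 FST reads per HI calf and 30 to 325 per MOD calf. The lowest, 1.51 CPM in HI calf 2120, had a 95% Poisson interval of 0.958 to 2.27 CPM, which covers counting error only.

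**Figure D1:**
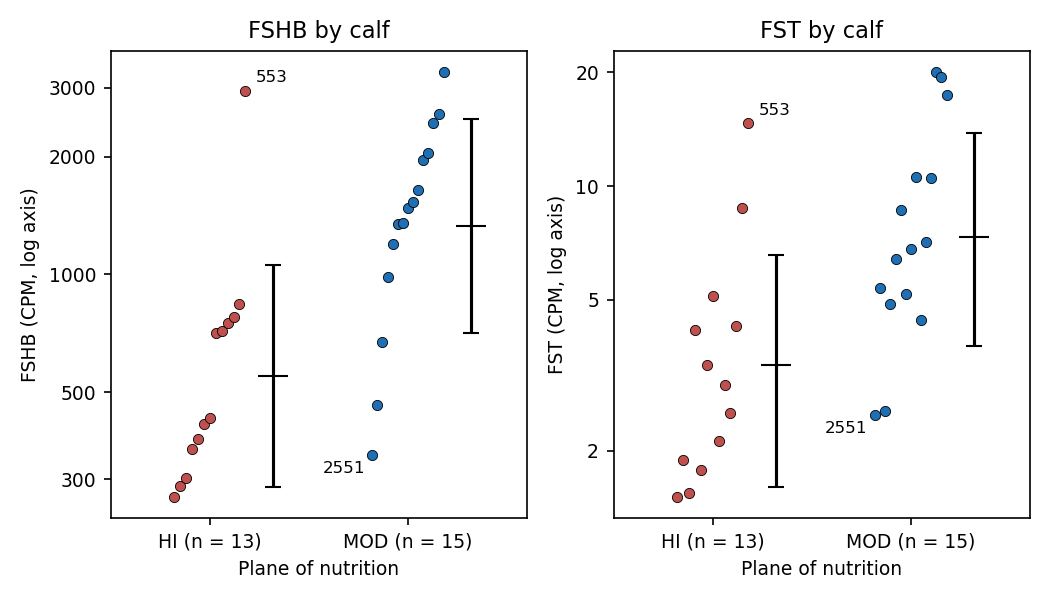
FSHB (left) and FST (right) in CPM on log axes, with a point for each of 13 HI and 15 MOD calves ordered within each diet by FSHB; bars give the mean ± SD of log2(CPM + 0.5), drawn back on the CPM axis. HI calf 553 lies at 2949 CPM of FSHB and 14.7 CPM of FST, among the highest MOD calves, and MOD calf 2551 at 347 and 2.49 CPM lies among the HI calves.

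Both genes varied widely between calves of the same diet. The SD of FSHB within diets was 0.92 on the log2 scale, larger than in 99.1% of the other genes tested. None of the 132 genes within 1 log2 unit of its level varied as much. For FST the SD was 0.87, larger than in 98.9% of the other genes, and 74 of 3231 genes near its level varied more. The SD was 0.94 in HI and 0.90 in MOD calves for FSHB, and 0.88 and 0.87 for FST. Without calf 553 the HI values were 0.62 for FSHB and 0.67 for FST. FSHB ranked 57th by level among the genes tested and FST 11762nd, which compares CPM not corrected for transcript length.

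Within a diet, FST followed FSHB. The 3 MOD calves with the highest FSHB (2431 to 3289 CPM) had the 3 highest FST values, 17.4 to 20.03 CPM. MOD calf 2551, lowest in FSHB, was also lowest in FST. In the HI group calf 2120 was lowest and calf 553 highest in both, and calf 1707 was second highest in both with 839 CPM of FSHB and 8.74 CPM of FST. Some calves departed from this order. MOD calf 1690 had the second lowest FSHB (463 CPM) but 5.39 CPM of FST, and HI calf 3620 had 429 CPM of FSHB with 5.14 CPM of FST, the next highest of its diet after calves 553 and 1707.

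On log2(CPM + 0.5), Pearson's r between FSHB and FST was 0.82 in the 15 MOD calves (permutation p = 0.00021, adjusted over the 2 diets 0.00042) and Spearman's rho was 0.80 (p = 0.00049, adjusted 0.00098). In the 13 HI calves r was 0.78 (permutation p = 0.00264, adjusted 0.00264) and rho was 0.77 (p = 0.00267, adjusted 0.00267). Leaving out the 2 MOD calves farthest from the median FSHB gave an r of 0.87. Leaving out the 2 such HI calves, 553 and 1707, the highest in FSHB, gave 0.41 (permutation p = 0.207), with a rho of 0.62. Without calf 553 alone the HI r was 0.55 (permutation p = 0.0626) and rho 0.71 (p = 0.0126). The linear relation in the HI calves therefore rested on its calves with the most FSHB. The measures share a library and its scaling, and the tests are two-sided.

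A limma model with diet and FSHB as terms gave the slope of each gene within diets, in log2 units of the gene per log2 unit of FSHB. For FST the slope was 0.76 (SE 0.11, adjusted p = 0.000402). It was 0.73 (SE 0.18) by least squares in the HI calves and 0.80 (SE 0.15) in the MOD calves. The interaction, the HI slope minus the MOD slope, was -0.07 (SE 0.22, 95% confidence interval -0.51 to 0.38, adjusted p = 0.936). A slope on this scale is reduced by the pseudocount at low levels: it was 0.82 with a pseudocount of 0.1 and 0.61 with 2. The slope was called in each of the 28 fits that left out a single calf, with a largest adjusted p-value of 0.0404. With calves 553 and 2551 both left out it was 0.75 (SE 0.15) and the adjusted p-value was 0.222.

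**Figure D2:**
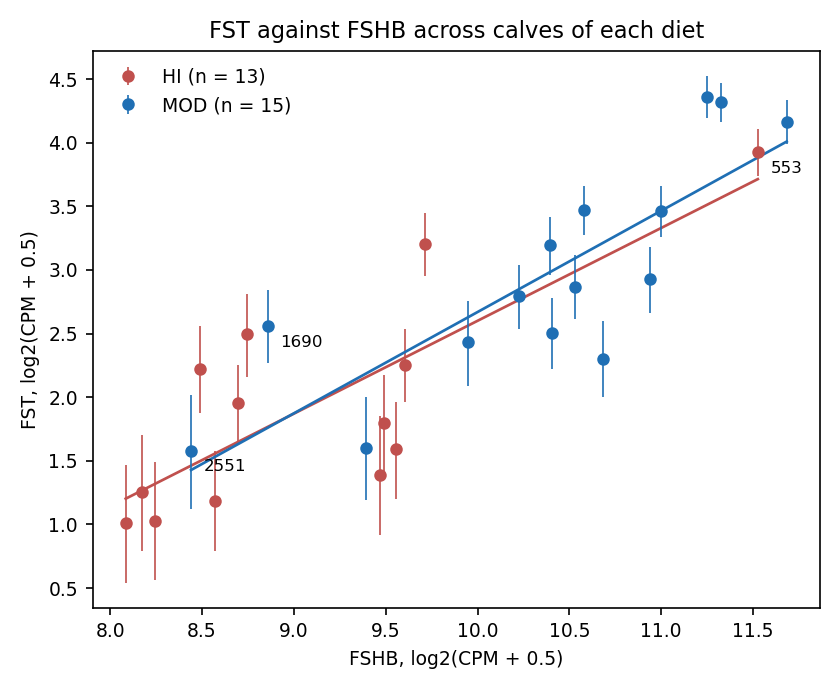
FST against FSHB, both as log2(CPM + 0.5), with a point for each calf (13 HI, 15 MOD), vertical bars for the 95% Poisson interval of the FST reads and a least squares line for each diet. The lines lie close to each other with slopes of 0.73 in HI and 0.80 in MOD, calf 553 sits at the upper end of the HI line and calf 1690 above the MOD line.

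The ratio of the 2 genes differed little between the diets. There were 2.997 to 12.0 FST reads per 1000 FSHB reads in the HI calves, with a median of 5.47, and 2.70 to 11.6 in the MOD calves, with a median of 5.29. The ranges coincided, and 6 of 13 HI calves lay below the MOD median. The mean was 6.54 ± 3.05 (SD, n = 13) against 5.82 ± 2.27 (SD, n = 15), and the log2 ratio was 0.13 higher in HI (SE 0.23, two-sided permutation p = 0.574 with 100000 resamples). This ratio lies within a library and does not depend on its scaling.

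Among calves of equal FSHB, the diet difference in FST was -0.05 on the log2 scale (SE 0.23, 95% confidence interval -0.52 to 0.42, adjusted p = 0.95), against -1.02 without FSHB in the model. In the other direction, the diet difference in FSHB among calves of equal FST was -0.41 (SE 0.23, 95% confidence interval -0.88 to 0.07, adjusted p = 0.484), against -1.27. Each shift equals the slope of the gene on the other times the diet difference in that other gene, so it adds nothing to the slope itself. The FST estimate was above 0 without HI calf 1089, HI calf 1360 or MOD calf 1690.

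Among all genes, FST ranked second of 14938 by the correlation of its within-diet residuals with those of FSHB (r = 0.80 over 28 calves), and FSHB ranked first by its correlation with FST. The median correlation of all genes was -0.00537 with FSHB and -0.000632 with FST, and 171 genes (1.14%) exceeded 0.5 with FSHB. The slope on FSHB was called for 11 genes (0.0736% of 14938), 10 of them positive (0.0669%) and 1 negative (0.00669%). Without calf 553 only FST was called, and with calves 553 and 2551 left out no gene was. The 10 genes with a positive slope all had a lower mean in HI than in MOD calves, as did 7716 of all 14939 genes tested (51.7%), and 3 of the 11 were called between the diets, where 0.837% of all genes were. Symbols could be given to 5 of the 11, and every symbol here comes from the genes that the study itself listed as differing between the diets in these calves. The diet directions of the named genes are therefore not independent evidence.

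MINAR2, a membrane receptor that interacts with NOTCH2, had a slope on FSHB of 0.41 (SE 0.07, adjusted p = 0.00756 in limma). It ranged from 0.268 to 2.38 CPM in HI calves (median 0.700) and from 1.23 to 4.09 CPM in MOD calves (median 2.57), so every HI calf lay below the MOD median. Its residuals correlated at 0.77 with FSHB over the 28 calves. The slope on FST was 0.43 (SE 0.08, adjusted p = 0.0112).

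VCAN encodes versican, a proteoglycan of the extracellular matrix, and ranged from 19.6 to 167 CPM in HI calves (median 43.4) and from 38.3 to 193 CPM in MOD calves (median 139). The highest HI calf was calf 553 and the lowest MOD calf was calf 2551. Its slope was 0.56 on FSHB (SE 0.11, adjusted p = 0.0372) and 0.62 on FST (SE 0.11, adjusted p = 0.0173) in limma. Without calf 553 the slope on FSHB was 0.47 (SE 0.13, adjusted p = 0.173).

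ENTPD3, an enzyme that breaks down extracellular nucleotides, had a shallower slope of 0.24 (SE 0.05, adjusted p = 0.047). It spanned 5.68 to 10.9 CPM in HI (median 8.90) and 7.86 to 21.2 CPM in MOD calves (median 13.0), with all 13 HI calves below the MOD median. STRA6, the membrane receptor through which cells take up retinol, had a slope of 0.50 (SE 0.10, adjusted p = 0.047). It spanned 5.31 to 29.5 CPM in HI (median 8.95) and 7.99 to 30.8 CPM in MOD calves (median 15.0), and the HI calf at 29.5 CPM was again calf 553. Without calf 553 the slope was 0.27 for ENTPD3 (SE 0.06, adjusted p = 0.121 in limma) and 0.44 for STRA6 (SE 0.12, adjusted p = 0.173). Calls for ENTPD3 and STRA6 held in 6 of 28 fits that left out a single calf, for VCAN in 17 and for MINAR2 in 27. Over 9 other settings, which include the fit without calves 553 and 2551, they held in 4 for ENTPD3, 5 for STRA6, 7 for VCAN and 8 for MINAR2.

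The gene whose residuals lay closest to FSHB, ENSBTAG00000017833, had no symbol here (r = 0.82, slope 0.25, SE 0.03, adjusted p = 0.000402 in limma). It ranged from 83.4 to 207 CPM in HI calves (median 94.5) and from 78.5 to 146 CPM in MOD calves (median 112), and its highest value was in calf 553. The only called negative slope belonged to ENSBTAG00000003049 (-0.28, SE 0.05, adjusted p = 0.0327), whose lowest HI value was in calf 553 and whose highest MOD value was in calf 2551. Among genes with a symbol the lowest correlations with FSHB were those of BEAN1 (-0.57), the acid-sensing ion channel family member ASIC4 (-0.56), the semaphorin SEMA6C (-0.49), the deiodinase DIO3 (-0.45) and the matrix metalloproteinase MMP11 (-0.45). None of these 5 had a called slope on FSHB.

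**Figure D3:**
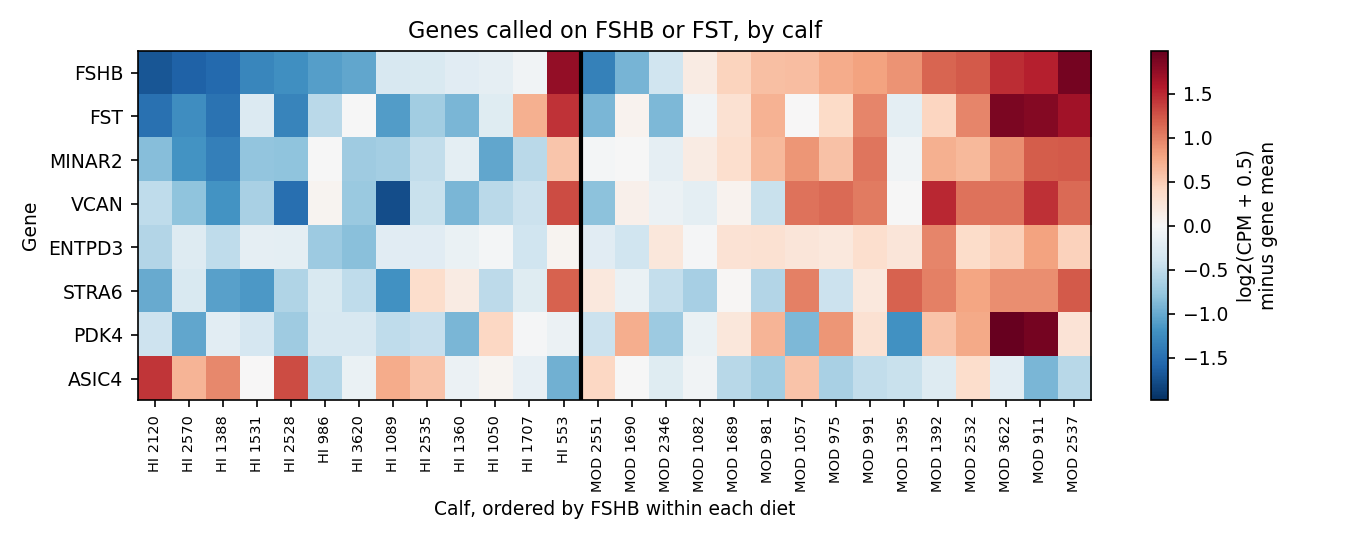
Colour gives log2(CPM + 0.5) minus the gene's mean over 28 calves for FSHB, FST and the 6 other genes with a symbol whose slope on FSHB or FST was called, with calves in columns ordered by FSHB within HI (left) and MOD (right). MINAR2, VCAN, ENTPD3 and STRA6 are highest of their diet in HI calf 553, where ASIC4 is lowest.

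The slope on FST was called for 20 genes (0.134%), 13 positive (0.087%) and 7 negative (0.0469%), and 5 of them had a symbol. Besides FSHB (0.85, SE 0.12, adjusted p = 0.000963), MINAR2 and VCAN these were PDK4 and ASIC4. PDK4, a kinase that shuts down pyruvate oxidation, had a slope of 0.55 (SE 0.12, adjusted p = 0.0485). It ranged from 32.7 to 89.4 CPM among HI calves (median 53.4) and from 28.8 to 268 CPM among MOD calves (median 83.3), and its highest value was in MOD calf 3622, the calf with the most FST. ASIC4 had a slope of -0.44 (SE 0.09, adjusted p = 0.0485). It ranged from 20.2 CPM in calf 553 to 107 CPM in calf 2120 among HI calves (median 41.6), the calves with the most and the least FST of that diet, and from 20.9 to 59.1 CPM in MOD calves (median 33.4). PDK4 was called in 12 and ASIC4 in 10 of 28 fits that left out a single calf. Without calf 553 the slope on FST was 0.66 for PDK4 and -0.38 for ASIC4. Over 9 other settings, which include the fit without calves 553 and 2551, PDK4 was called in 4 and ASIC4 in 2. The carboxylesterase CES4A, next after PDK4 among genes with a symbol (r = 0.64), was not called (adjusted p = 0.0703). DIO3, the enzyme that inactivates thyroid hormone, had a correlation of -0.59 with FST (adjusted p = 0.108 for its slope), and GPR139, an orphan receptor, -0.47 (adjusted p = 0.22). Without symbol, ENSBTAG00000006209 rose with FST (r = 0.79, slope 0.22, SE 0.03, adjusted p = 0.00321), and ENSBTAG00000016107 had the lowest correlation (-0.73) without a called slope (adjusted p = 0.0638). The count of genes called on FST was 29 without calf 553, 5 without calf 2551, 54 without HI calf 1707 and 0 without calves 553 and 2551.

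Each diet was also tested on its own. In the MOD calves 15 genes had a called slope on FSHB (0.1%), 14 of them positive (0.0937%) and 1 negative (0.00669%), and FST was the only gene with a symbol (slope 0.80, SE 0.14, adjusted p = 0.0294). Slopes of MINAR2, VCAN and ENTPD3 in the MOD calves were 0.42, 0.64 and 0.31 (adjusted p = 0.0800, 0.0821 and 0.0661). In the HI calves no gene was called on FSHB by limma or by edgeR, with 589 genes at an unadjusted p-value below 0.05 in limma and 579 in edgeR. For FST 5 genes were called in MOD calves (0.0335%) and none in HI calves, where limma had 830 and edgeR 846 genes at an unadjusted p-value below 0.05. The MOD counts were unstable: for FSHB, edgeR called 0, and the limma count was 0 without MOD calf 1392, 2551 or 3622, 450 without calf 2346 and 681 without calf 1690. For FST it was 0 without calf 2551 and 100 without calf 2537. A call in a single diet does not show that the diets differ. The difference of slopes was called for no gene with FSHB (1739 genes at an unadjusted p-value below 0.05 in limma, 1598 in edgeR, which also called 0) and for no gene with FST (1363 and 1301, with 0 called by edgeR). That count for FSHB was 104 without calf 2346 and 81 without calf 1690.

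Genes of the pathways that act on FSHB were next. Of 25 listed ligands, receptors, effectors and antagonists of activin, bone morphogenetic proteins and TGF-beta, 5 had an identifier here, each because the study listed it as differing between the diets. FST, the gene already described, was the only one called on FSHB, where 0.0736% of all genes were called. The slopes of the 5 ran from -0.12 to 0.76, and the highest was that of FST itself. KLF11, a transcription factor that TGF-beta induces, had a slope of 0.30 (SE 0.12, adjusted p = 0.499) with 7.83 to 25.3 CPM in HI and 8.21 to 43.1 CPM in MOD calves. SOST, the secreted antagonist sclerostin, had a slope of 0.44 (SE 0.19, adjusted p = 0.501) and on FST of 0.68 (SE 0.17, adjusted p = 0.107). It ranged from 1.31 to 14.04 CPM among HI calves and from 2.25 to 35.0 CPM among MOD calves, lowest in calf 2120 and highest in calf 553 among HI calves as FSHB and FST were. WFIKKN1, a secreted protein that binds myostatin, had a slope of -0.12 (SE 0.09, adjusted p = 0.678). BMPER, which binds bone morphogenetic proteins outside the cell, had -0.03 (SE 0.11, adjusted p = 0.946). Between diets BMPER and SOST were called lower and WFIKKN1 higher in HI calves. Of all genes 0.428% were called lower and 0.408% higher, but the study's list fixed which genes could be named.

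Of 7 GnRH signalling genes that the study lists, the 6 other than FSHB had no called slope on FSHB, with a median of -0.04 and a lowest adjusted p-value of 0.579. The range ran from -0.18 for the T-type calcium channel gene CACNA1I (SE 0.10) to 0.20 for RASD1, a small G protein induced by steroids (SE 0.11). EGR1, the transcription factor that GnRH induces in gonadotrophs, had a slope of -0.10 (SE 0.24, adjusted p = 0.914). It ranged from 20.2 to 421 CPM in HI calves (median 72.0) and from 37.3 to 685 CPM in MOD calves (median 268), and calf 553, highest of its diet in FSHB, had 72.0 CPM of EGR1, at the HI median. CACNA1E, GNA15 and PRKCB, a calcium channel, a Gq family subunit and a protein kinase C, had slopes of 0.12, 0.03 and -0.10. Between diets 3 of the 7 were called higher and 3, FSHB among them, lower in HI calves, from a list the study chose on these calves. Of all genes 0.408% were called higher and 0.428% lower. On FST, FSHB was the only called gene of the 7.

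None of 15 immediate early genes and early feedback genes, which cells switch on within minutes of a stimulus, was called on FSHB (median slope 0.05, lowest adjusted p = 0.506) or on FST (median slope 0.26, lowest adjusted p = 0.108), while 8 of the 15 were called lower in HI calves. Over all genes 0.428% were called lower, but these 15 carry symbols only because the study listed them as differing between the diets, so that count was close to fixed by their choice. Of 9 gonadotroph genes FSHB alone had an identifier here, so gonadotroph content was not measured apart from FSHB itself.

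Marker genes of other cells were set beside these relations. The lactotroph genes PRL, the prolactin gene, and DRD2, the dopamine receptor of these cells, had slopes on FSHB of -0.18 (SE 0.12) and -0.16 (SE 0.08), and neither was called (lowest adjusted p = 0.528). Their summed level was 70265 to 268435 CPM in HI and 32173 to 145889 CPM in MOD calves, and 79931 CPM in calf 553. For the somatotroph genes GHRHR, the growth hormone releasing hormone receptor, and CSHL1, slopes were 0.09 (SE 0.07) and -0.13 (SE 0.08). Their sum was 60869 to 151152 CPM in HI and 92747 to 275178 CPM in MOD calves. The symbol CSHL1 is the study's, which describes the gene as encoding a somatotropin. GH1 had no identifier here, and whether the gene labelled CSHL1 is growth hormone itself was not tested. Markers of immune cells (3 genes, 23.8 to 113 CPM in HI and 17.3 to 68.2 CPM in MOD), muscle (4 genes, 23.8 to 84.2 and 31.5 to 150 CPM), oligodendrocytes (1 gene, 0.852 to 3.92 and 0.120 to 1.86 CPM) and endothelium (1 gene, 3.62 to 7.34 and 1.86 to 7.71 CPM) had no called slope on FSHB or FST, and no marker was at 0 in all calves. Between diets these markers differed in both directions. The somatotroph genes GHRHR (-0.57, adjusted p = 0.00815 in limma) and CSHL1 (-0.70, adjusted p = 0.00719) had lower and the lactotroph genes PRL (1.01, adjusted p = 0.00815) and DRD2 (0.94, adjusted p = 0.000453) higher values in HI calves. Of the 3 immune genes CD79B was lower in HI calves (-0.65, adjusted p = 0.0131), while CX3CR1 (0.63, adjusted p = 0.105) and TIMD4 (0.77, adjusted p = 0.0544) had positive differences that did not pass. Of the 4 muscle genes MYH6 was higher (0.96, adjusted p = 0.0135), and MYH4 (0.95), ACTA2 (-0.69) and LMOD1 (-0.51) did not pass (adjusted p = 0.0773, 0.128 and 0.131). The oligodendrocyte gene OMG (0.67, adjusted p = 0.0308) and the endothelial gene MMRN1 (0.57, adjusted p = 0.0201) were higher. The fold changes of GHRHR and MMRN1 were below 1.5. Markers of corticotrophs and thyrotrophs were not analysed here. The part of these cells in the FSHB and FST values was not tested.

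**Figure D4:**
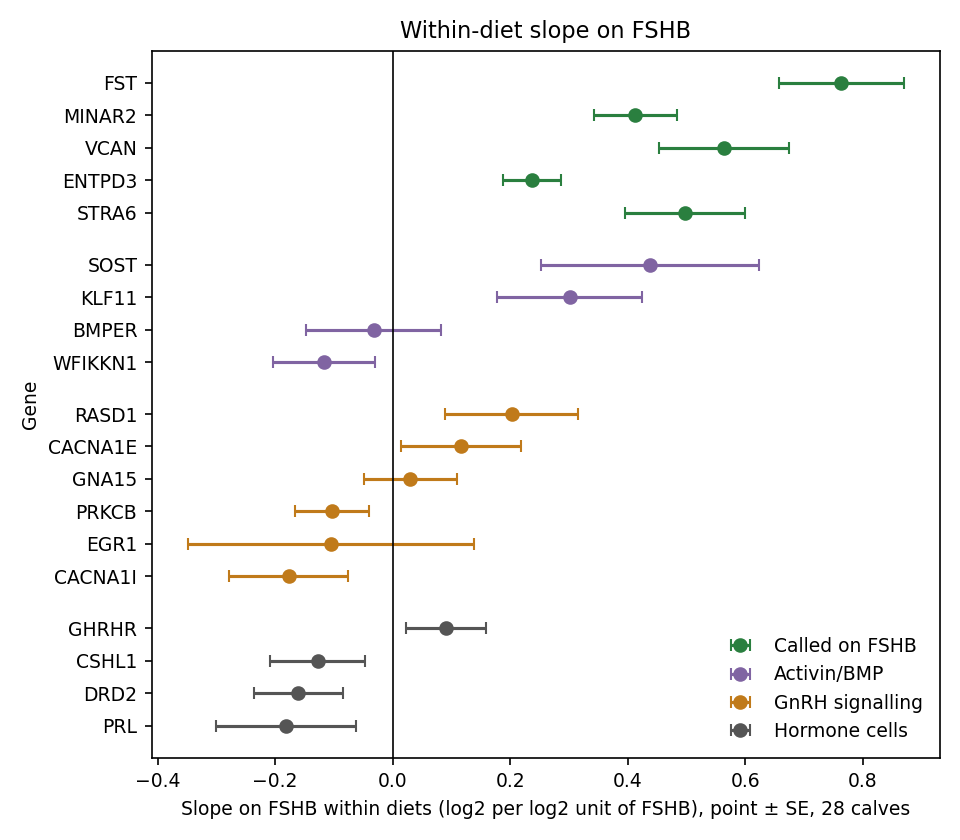
Slope of each gene on FSHB within diets (log2 units per log2 unit of FSHB; point ± SE over 28 calves), coloured by gene group. FST (0.76), VCAN (0.56), STRA6 (0.50), MINAR2 (0.41) and ENTPD3 (0.24) were called, and the GnRH signalling genes lie between -0.18 and 0.20.

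Diet differences were also fitted among calves of equal FSHB. The shift of a gene in this fit follows from its slope on FSHB and the diet difference in FSHB, so genes named for their slope had to move and genes without a slope had to stay, and the values are a description. With FSHB in the model the diet term passed an adjusted p-value of 0.05 for 81 genes (0.542%), where 511 (3.42%) passed without it. The counts are not comparable gene by gene, because FSHB itself differs between the diets and its presence changes the error of the diet term, which rose from 0.20 to 0.25 for BMPER and fell from 0.18 to 0.15 for MINAR2. MINAR2 went from -1.16 to -0.63 (SE 0.15, adjusted p = 0.0498) and VCAN from -1.16 to -0.45 (SE 0.24, adjusted p = 0.462). ENTPD3 went from -0.61 to -0.31 (SE 0.11, adjusted p = 0.204) and STRA6 from -0.75 to -0.12 (SE 0.22, adjusted p = 0.87). BMPER, with a slope of -0.03, was at -1.08 and -1.12 (SE 0.25, adjusted p = 0.0316). ARC, a neuronal immediate early gene, was at -1.67 and -1.96 (SE 0.32, adjusted p = 0.00358), and DRD2 at 0.94 and 0.74 (SE 0.17, adjusted p = 0.0316). EGR1 was at -1.64 and -1.77 (SE 0.43 and 0.53, adjusted p = 0.0302 and 0.137). PRL was at 1.01 and 0.78 (SE 0.26, adjusted p = 0.179).

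**Figure D5:**
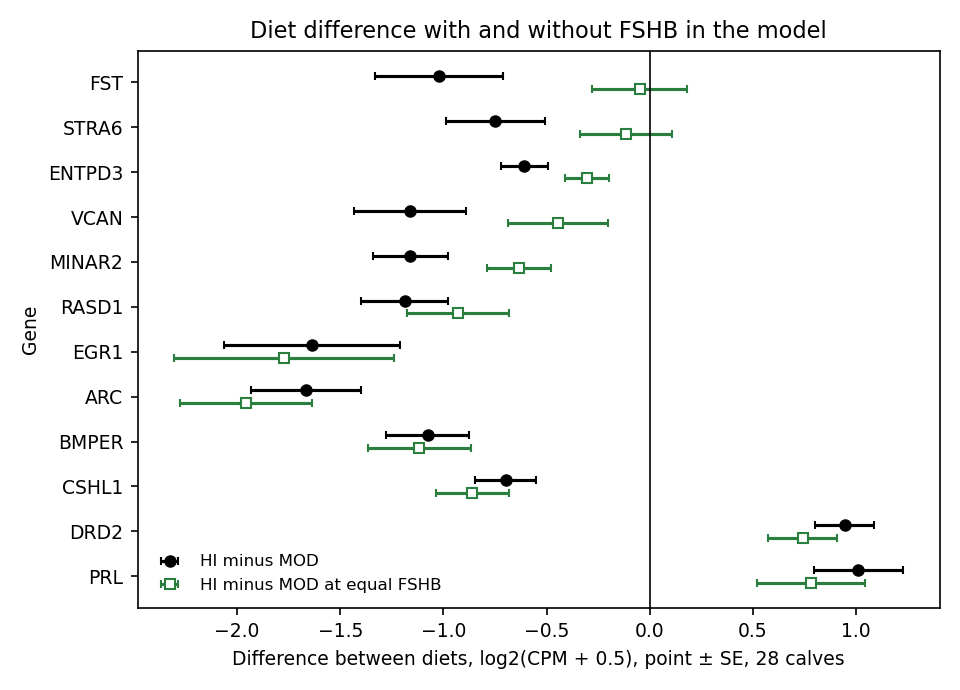
Difference between diets (HI minus MOD, log2 scale, point ± SE, 28 calves) without (filled circles) and with (open squares) FSHB in the model. FST moves from -1.02 to -0.05 and STRA6 from -0.75 to -0.12, and BMPER from -1.08 to -1.12; each shift is fixed by the gene's slope on FSHB.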

How the data were processed

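The authors made stranded mRNA libraries, removed adapters with cutadapt 2.6, aligned reads to ARS-UCD1.2 with STAR 2.6.1 and counted them per gene, per the submitters' processing notes, which also name FastQC 0.11.8, R 3.4 and edgeR 3.5. The study's methods give other versions of FastQC, cutadapt, STAR and edgeR. The deposited values are a normalized signal, CPM on TMM-adjusted library sizes, although the table is described as counts. Division by the CPM of a single read gave whole reads for 100% of positive values (within 0.01), so precision rests on 12669266 to 18217216 reads per calf.

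Genes that passed filterByExpr (edgeR 4.0.16) were tested with limma 3.58.1 in R 4.3.3 (trended, robust empirical Bayes) on log2(CPM + 0.5), with Benjamini-Hochberg adjustment over all genes tested and MOD as the reference. Fold changes on this scale understate those of low genes. Diet differences were called at a fold change over 1.5 with an adjusted p-value under 0.05, slopes at the adjusted p-value alone. Permutation tests were two-sided with 100000 resamples. Each calf is a sample. The study allocated calves to the diets within blocks, but the block of each calf is not given in the sources used here and could not enter the model. No batch is given there either. The labels give 13 and 15 calves where the study's text gives equal groups, and all labelled calves were used as labelled.

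Named genes are list members and, among genes with a symbol, the 5 highest and 5 lowest correlations with FSHB and with FST, with at most 4 identifiers without symbol. The genes and lists were chosen with earlier results of these data known. Symbols were paired with identifiers here for 159 genes, all from the study's list of genes differing between diets. LHB, CGA, GNRHR and activin subunits were not analysed here, and neither were promoter or protein sequences. Scripts were tested on simulated data. Alternatives changed the pseudocount, filter, scaling, covariates, calves and test (edgeR, DESeq2 1.42.0, limma-voom).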

Additional observations from a re-analysis of the deposited data

How the results depend on the processing

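FSHB was lower in HI calves in all 11 other settings, and edgeR's quasi-likelihood F-test did not call it (-1.14, adjusted p = 0.0524), while DESeq2 and limma-voom called it. FST was not called in 10 of 11 settings, and was called without calves 553 and 2551 (-1.29, adjusted p = 0.00497 in limma), a choice made after seeing the data. That choice gave 0 genes called on FSHB and 0 on FST within diets, and 0 in MOD calves for each gene. Without a filter on low values, 5 genes were called on FSHB and 9 on FST within diets, 0 on FSHB in MOD calves, and 2 differed in slope between diets. A pseudocount of 0.1 gave 9 genes called on FST within diets and 11 in MOD calves. Depth as a covariate gave 11 on FST within diets and 4 on FSHB in MOD calves. In MOD calves edgeR called 0 on FSHB and 23 on FST, keeping genes above 1 CPM in 13 or more calves gave 9 on FST, and library totals without PRL and CSHL1 also gave 9.

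Leaving out a single calf gave a diet difference of -1.47 to -1.18 for FSHB, called in 21 of 28 fits (lost without HI calf 1388, 2120, 2528 or 2570 or MOD calf 1392, 3622 or 911), and of -1.19 to -0.92 for FST, called in 4 (without HI calf 553 or 1707 or MOD calf 2346 or 2551). At equal FSHB the FST difference ran from -0.15 to 0.0897 and was above 0 in 3 fits (0.0390, 0.0292 and 0.0897). At equal FST the FSHB difference ran from -0.59 to -0.31. Genes called on FSHB numbered 1 to 11 within diets, 0 to 681 in MOD and 0 to 1 in HI calves, and on FST 5 to 54, 0 to 100 and 0 to 1. Genes differing in slope on FSHB numbered 0 to 104. The log2 ratio of FST to FSHB reads ran from 0.04 to 0.21, and r from 0.78 to 0.87 in MOD and from 0.55 to 0.82 in HI calves. In HI calves r was 0.41 without calves 553 and 1707, the 2 highest in FSHB, which lay farthest from the median. The cause of these changes was not tested. No paired analysis was possible because calves carry no block label and the diets share no replicate numbers. FST rests on as few as 23 reads in a calf, so its values in the lowest calves are the least precise.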
